A study of Oryza sativa with 12 samples.

Results

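The transcript response of the heat-tolerant rice line XN0437T to high night temperature was described across every locus with enough counts to test. XN0437T and its heat-sensitive counterpart XN0437S are near-isogenic lines of rice (Oryza sativa), and both were sampled at the filling stage, when the grain lays down starch and storage protein. Members were the 3 control libraries and the 3 libraries under high night temperature of XN0437T, 6 of 12 libraries in the series, and 33281 of the 50708 loci in the deposited table passed the filter on low counts. The 6 libraries of XN0437S entered the same fit, which shares 1 estimate of spread, and they are reported only where a difference between the lines was tested. Control and stress plants of a line differ only in the night temperature as far as the labels go, and the material is labelled only as rice. The sources used here give no organ, night temperature, length of treatment or plant age, and no label ties the replicates to separate plants. The spread on which the p-values rest is therefore that between these libraries, which may be technical. Positions are those of the deposited table, which uses the locus names of the MSU rice annotation; the submitters' processing notes name a mouse build, and none of rice.

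Heat unfolds proteins, and in plants the heat stress transcription factors (Hsf) then switch on genes of heat shock proteins. Small heat shock proteins hold unfolded proteins, HSP100 disaggregases of the ClpB type work with HSP70 to pull aggregates apart, and HSP90 takes clients through the last steps of folding. The lumen of the endoplasmic reticulum (ER) has chaperones of its own, led by the HSP70 protein BiP, which are induced when secretory proteins fail to fold. In a filling rice grain the endosperm makes storage protein at the ER and starch in amyloplasts, and warm nights during filling are known in rice for lighter and chalkier grains.

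Under high night temperature 5547 loci rose and 5512 fell in the tolerant line, which is 16.7% and 16.6% of the loci tested and 33.2% together. Loci that changed at least 2-fold numbered 2986 upward (8.97%) and 2093 downward (6.29%), and at 8-fold or more 837 rose and 333 fell. At nearly equal numbers of calls, more of the rises than of the falls were large. No count at all was found in control for 391 of the loci that rose and under stress for 125 of those that fell. A call is an adjusted p under 0.05 in edgeR's quasi-likelihood test with Benjamini-Hochberg adjustment over all tested loci. Fold changes are fitted log2 values, stress minus control, with their standard errors (SE), and levels are counts scaled to a common library size (CPM) after TMM, given for control libraries 1 to 3 and then stress libraries 1 to 3.

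Library totals ran from 85496090 to 100353570 counts over the 12 libraries, and correlations of log values across loci were 0.940 to 0.944 within the tolerant groups and 0.880 to 0.885 between them. TMM, edgeR's correction for library composition, gave the control libraries of XN0437T factors of 0.844 to 0.981 and its stress libraries 1.11 to 1.18, so the scaling bears on direction. With library totals alone the median log2 fold change of all tested loci was 0.37 in place of 0.05, and 76.8% of called loci rose in place of 50.2%, against 77.1% in the deposited FPKM with a pseudocount of 1. The 5 most counted loci held 21.7%, 24.6% and 31.3% of the counts in control libraries 1 to 3, and 25.7%, 25.2% and 27.2% under stress. A single entry of merged names (LOC_Os09g00999 and LOC_Os09g01000) held 1.1%, 3.2% and 13.9% in control. With these 5 loci left out, on the TMM scale, 51.3% of called loci rose. All changes are given relative to the TMM scale, and where a group turns direction without it, this is said beside the group. Markers of the tissues a grain holds moved as well. The 9 endosperm markers summed to between 55755 and 61927 CPM in control and between 29970 and 30642 CPM under stress, with 8 lower. The 4 embryo and aleurone markers summed to 3426 to 3769 CPM and then 1844 to 1926 CPM, with 3 lower, and the 6 green tissue markers to 635 to 653 CPM and then 383 to 402 CPM, with 3 lower and 1 higher. None of these markers was under 1 CPM. In whole tissue, fewer cells of a type and less RNA per cell cannot be told apart, and the part of these markers in the results below was not tested.

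Small heat shock proteins had the highest median of the 36 gene lists drawn from the protein descriptions. HSP90-type HSP82 (LOC_Os04g01740, chromosome 4, 483241 to 486065) went from 1.12, 1.65 and 0.968 to 426, 435 and 449 CPM. Its log2 fold change was 8.45 ± 0.33 in edgeR (adjusted p = 1.41e-09). The groups are far apart and the 3 stress libraries lie close together. Per transcript length HSP82 went from 0.331 ± 0.0997 to 147 ± 6.87 FPKM (mean ± SD, n = 3 per group, as for the values that follow in FPKM), passing HSP81-1 (LOC_Os08g39140, chromosome 8, 24719086 to 24723553), a second HSP90, which went from 17.1 ± 5.44 to 99.5 ± 40.8 FPKM. HSP81-1 was less even between libraries, going from 122, 72.7 and 75.2 to 295, 351 and 596 CPM (log2 fold change 2.2 ± 0.47, adjusted p = 0.00294 in edgeR). Of 6 tested HSP90 entries 5 rose and 0 fell, with a median log2 of 1.51 against 0.05 for all loci. The exception, which did not pass (0.38 ± 0.18), is an entry of several merged locus names described as a UBX domain protein. It was the most counted entry of the list in control, at a mean of 326.7 CPM, and was at 426.4 CPM under stress. How its counts divide among the merged loci is uncertain.

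Among 20 small heat shock proteins 14 rose, all of them at least 2-fold, and 1 fell, with a median log2 of 3.38. Mitochondrial 24.1 kDa HSP (LOC_Os02g52150, chromosome 2, 31920854 to 31922712) went from 3.05, 2.76 and 2.43 to 145, 153 and 145 CPM, a log2 fold change of 5.75 ± 0.11. The 23.2 kDa HSP (LOC_Os04g36750, chromosome 4, 22200999 to 22201941), chloroplast 26.7 kDa HSP (LOC_Os03g14180) and peroxisomal 16.0 kDa HSP (LOC_Os06g14240) rose by log2 6.10 ± 0.30, 4.79 ± 0.30 and 5.18 ± 0.38, so members of mitochondria, chloroplasts and peroxisomes are among those that rose. The 21.9 kDa HSP (LOC_Os11g13980, chromosome 11, 7750253 to 7751125) had 0 counts in each control library and 639, 644 and 648 under stress. Against a floor of 12 counts per library, taken as 3 fragments at 4 counts each, that is at least 43.4-fold higher. The exception was 17.9 kDa HSP 2 (LOC_Os01g04350), which went from 31.2, 29.1 and 27.9 to 22.4, 23.8 and 18.5 CPM, a log2 fold change of -0.45 ± 0.10; this fall did not pass with library totals alone or in FPKM. Class I members at the tandem loci of chromosomes 1 and 3 are near copies, several under merged names, and how their counts were divided is uncertain.

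HSP70 transcripts rose in 14 of 22 entries and fell in 2, with a median of 0.89, against 16 rises and 1 fall with library totals alone. Constitutive HSC70-2 (LOC_Os11g47760, chromosome 11, 28804248 to 28808550), the most abundant entry under stress, was already high in control. It went from 1228, 1293 and 1273 to 2370.3, 2391 and 2422 CPM, a log2 fold change of 0.92 ± 0.03. A further cognate HSP70 (LOC_Os03g16920, chromosome 3, 9371953 to 9416082) moved from 120.4, 114 and 122 to 504, 523 and 491 CPM. A pair of loci that the table describes as mediator subunit 37c, a name under which plant HSP70 proteins are filed, rose steeply: LOC_Os05g38530 by log2 3.46 ± 0.07 and LOC_Os01g62290 by 2.58 ± 0.05. Plastid stromal HSP70 loci parted. LOC_Os12g14070 went down, from 1279, 1328 and 1279 to 898, 895 and 875 CPM, a log2 fold change of -0.54 ± 0.03. The less abundant LOC_Os05g23740, with the same description, rose from a mean of 65.9 to 97.4 CPM (0.56 ± 0.15). The disaggregase ClpB1 (HSP101, LOC_Os05g44340, chromosome 5, 25803530 to 25807160) rose from 88.3, 83.3 and 92.5 to 405, 416 and 428 CPM, a log2 fold change of 2.24 ± 0.06. ClpB3 of mitochondria and ClpB2 of chloroplasts rose by 2.19 ± 0.12 and 1.19 ± 0.07. Of 4 tested entries of this family 3 rose and 1 fell, against 3 and 0 with library totals alone. The fall was ClpB1-like LOC_Os02g33420, from a mean of 9.64 to 7.39 CPM (-0.38 ± 0.12).

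Co-chaperones moved in both directions. The 70 kDa peptidyl-prolyl isomerase (LOC_Os04g28420, chromosome 4, 16813848 to 16818129), of the FKBP type that binds HSP90, rose from 3.78, 5 and 5.15 to 267, 283 and 250.1 CPM, a log2 fold change of 5.84 ± 0.13, and LOC_Os02g28980 and LOC_Os08g41390, which carry the same description, by 1.95 ± 0.13 and 1.79 ± 0.07. Yet among all 53 peptidyl-prolyl isomerases 8 rose and 13 fell, with a median of -0.16; with library totals alone 12 rose and 2 fell, and the median was 0.15. The HSP70-HSP90 organizing proteins (LOC_Os02g43020 and LOC_Os06g06490) and the activator of HSP90 ATPase (LOC_Os08g36150) rose by 1.99 ± 0.26, 2.13 ± 0.40 and 1.85 ± 0.14. Of 9 BAG regulators of HSP70 3 fell and 1 rose. BAG3 (LOC_Os06g03640) changed by -1.75 ± 0.11 and BAG1 (LOC_Os04g52890) by -0.87 ± 0.08, and BAG7 (LOC_Os02g01520) rose by 0.70. BAG2 (LOC_Os01g67950) fell from a mean of 0.0901 CPM to no counts. That mean is under the floor of 12 counts per library, 0.1412 CPM in control, so no size can be given for its fall. With the HSP90 co-chaperones the list had 6 rises and 3 falls among 14, with a median of 0.09. Of 46 DnaJ proteins, the HSP40 partners of HSP70, 12 rose and 8 fell, with a median of 0.08, close to that of all loci. The DnaJ subfamily B member LOC_Os01g42190 had 0, 17 and 12 counts in control and 1952, 2565 and 2427 under stress, which in CPM is from 0, 0.197 and 0.142 to 18.6, 24.7 and 22.8 CPM.

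Heat stress factors rose in 10 of 24 entries and fell in 4, with a median of 0.32. HsfA2a (LOC_Os03g53340, chromosome 3, 30603964 to 30607164), of the class known in plants for sustaining the heat response, went from 0.334, 0.174 and 0.579 to 19.5, 21.8 and 14.7 CPM, a log2 fold change of 5.68 ± 0.33. HsfA3 (LOC_Os02g32590, chromosome 2, 19309594 to 19313057) went from 1.74, 1.87 and 1.65 to 19.6, 20.5 and 22.3 CPM, and HsfC1b (LOC_Os01g53220) rose from a mean of 2.64 to 7.46 CPM. Within class A2 the paralogs parted: besides A2a, HsfA2c (LOC_Os10g28340) rose by 1.68 ± 0.09, while HsfA2b, A2d and A2e, with log2 fold changes of 0.06 ± 0.18, 0.35 ± 0.18 and -0.17 ± 0.20, did not pass. HsfC2b (LOC_Os06g35960) and HsfB1 (LOC_Os09g28354) fell, with -1.91 ± 0.16 and -0.72 ± 0.10. HsfA1 (LOC_Os03g63750), of the class known as the first to be activated, went from 49.3, 51.6 and 49.7 to 34.8, 33.8 and 35 CPM, a log2 fold change of -0.54 ± 0.07, a fall that was not called with library totals alone. The co-activator MBF1c (LOC_Os06g39240), which plants need to survive heat, rose from 7.57, 4.21 and 5.87 to 52.3, 52 and 50.9 CPM.

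**Figure D1:**
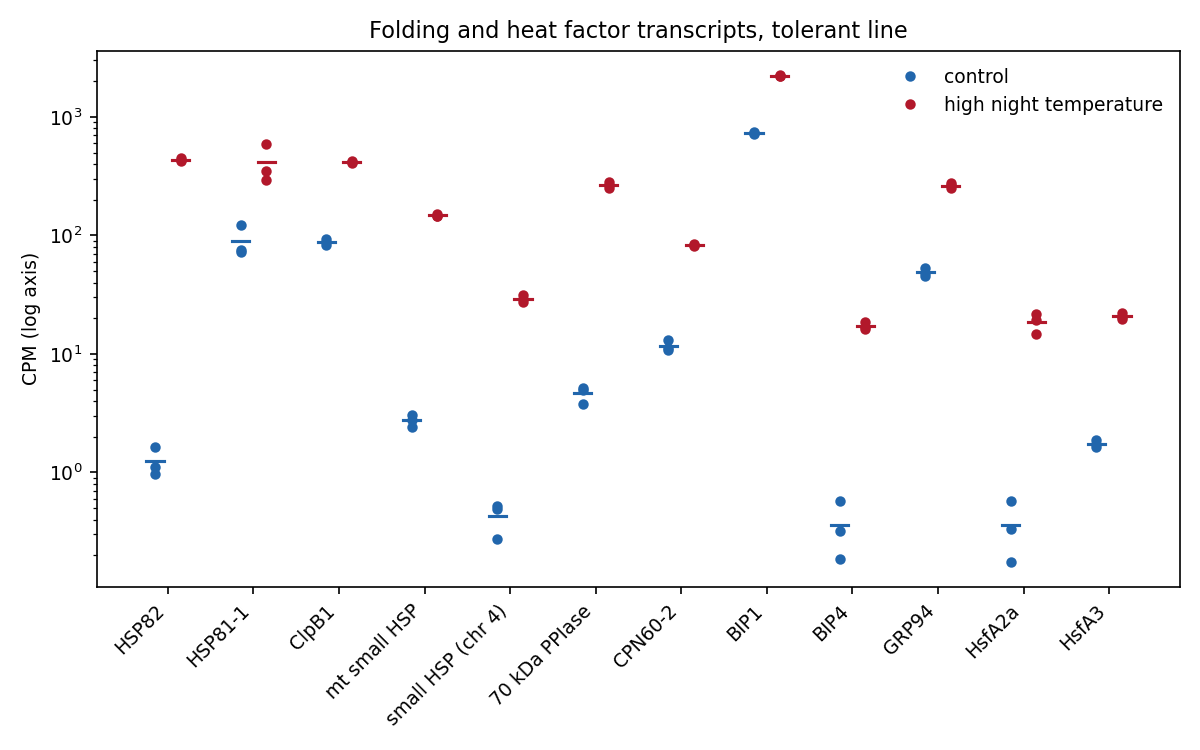
Levels of 12 folding and heat factor transcripts in the tolerant line, in CPM on a log axis, for 3 control libraries (blue) and 3 libraries under high night temperature (red); points are libraries and short bars are group means, mt small HSP is the mitochondrial LOC_Os02g52150 and small HSP (chr 4) is LOC_Os04g36750. In each of the 12 the stress libraries lie above the control libraries, from HSP82, near 1 CPM in control and above 400 under stress, to BIP1, which was at 732 CPM in control and 2223 under stress.

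ER folding transcripts rose around BiP. BIP1 (LOC_Os02g02410, chromosome 2, 838717 to 842672) went from 729, 725 and 743 to 2216, 2201 and 2253 CPM, a log2 fold change of 1.60 ± 0.03. Its paralogs BIP4 (LOC_Os05g35400, chromosome 5, 21033769 to 21036041) and BIP2 (LOC_Os03g50250) started near 0, BIP4 going from 0.322, 0.185 and 0.579 to 16.2, 18.8 and 17 CPM and BIP2 with 6, 0 and 0 counts in control and 325, 264 and 407 under stress. Other BiP-type entries, at low levels, did not rise. The BIP3-like LOC_Os12g05760 fell from a mean of 1.77 to 0.94 CPM (-0.92 ± 0.31), and luminal-binding protein 4 (LOC_Os06g10990) did not pass (-0.56 ± 0.50). GRP94 (LOC_Os06g50300, chromosome 6, 30444411 to 30450497), the ER member of the HSP90 family, moved from 48, 53 and 45.1 to 264, 278 and 249 CPM. Of 28 protein disulfide isomerases, lectin chaperones and translocon parts 10 rose and 4 fell, with a median of 0.25. Disulfide isomerase PDIL2-3 (LOC_Os09g27830, chromosome 9, 16930987 to 16935970) and calreticulin-3 (LOC_Os01g67054, chromosome 1, 38930369 to 38934770), a lectin chaperone of glycoproteins, rose by 2.29 ± 0.07 and 2.37 ± 0.21, whereas PDIL1-1 (LOC_Os11g09280), the abundant isomerase of the endosperm ER, rose from a mean of 399 to 467 CPM (0.23 ± 0.04). SDF2 (LOC_Os08g17680), an ER lumen protein induced by unfolded proteins in Arabidopsis, went from 5.97, 7.53 and 6.58 to 61.1, 60.1 and 63.5 CPM. Of the signalling arm, the transcription factor bZIP50 (LOC_Os06g41770, chromosome 6, 25041772 to 25044111), whose mRNA is spliced by IRE1 in rice, rose from 25, 23.5 and 18.5 to 81.5, 77.7 and 80.2 CPM, and IRE1 itself (LOC_Os07g28820), from 41.3, 35.4 and 31.8 to 38.4, 42.6 and 43.6 CPM, did not pass (0.20 ± 0.10), though it did with library totals alone, in FPKM and without control library 1 (0.51, 0.48 and 0.30). The falls were 2 Sec61 gamma subunits of the translocon (LOC_Os02g08180 and LOC_Os06g44374), at -0.60 ± 0.07 and -0.78 ± 0.07, PDIL5-1 (LOC_Os03g17860), at -1.09 ± 0.16 and PDIL1-4 (LOC_Os02g01010), at -0.34 ± 0.08.

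Chaperonins, the ring-shaped folding machines of organelles and cytosol, rose in every called case. Of 23 tested 12 rose and 0 fell, with a median of 0.43. Mitochondrial CPN60-2 (LOC_Os10g32550, chromosome 10, 17048041 to 17053544) went from 13.1, 10.7 and 11.2 to 83.7, 83.9 and 80.9 CPM, a log2 fold change of 2.83 ± 0.12. The plastid chaperonin subunits that fold Rubisco (LOC_Os12g17910 and LOC_Os06g02380) rose by 2.17 ± 0.07 and 1.51 ± 0.08, and the Rubisco assembly factor RBCX1 (LOC_Os08g32930) by 2.94 ± 0.39. Mitochondrial GrpE 2 (LOC_Os08g25090), the nucleotide exchanger of organelle HSP70, rose by 2.37 ± 0.22, and mitochondrial HSP90-6 (LOC_Os12g32986) by 1.76 ± 0.07. In plastids, the thylakoid protease FTSH6 (LOC_Os06g12370, chromosome 6, 6701247 to 6704416), which in Arabidopsis removes a small HSP after heat, rose from 0.763, 1.01 and 0.661 to 15.9, 17.4 and 15.8 CPM. Early light-inducible proteins, which bind pigments under stress, rose at LOC_Os07g08150 and LOC_Os07g08160 by 3.34 ± 0.28 and 2.11 ± 0.24; these neighbours carry the same description and may share reads. Of 270 tested loci annotated to the thylakoid membrane, a term chosen after its values were seen, 50 rose and 95 fell, with a median of -0.20. With library totals alone 85 rose and 54 fell, and the median was 0.12.

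Pentatricopeptide proteins, which bind and edit RNA in mitochondria and chloroplasts, had more rises than falls: 73 of 326 rose and 14 fell, with a median of 0.48 (0.79 with library totals alone). Of the 326, 290 had means under 10 CPM in both groups, among them LOC_Os04g35650, which went from 0.751, 0.649 and 0.697 to 2.23, 3.79 and 3.7 CPM, and LOC_Os12g06650, from 0.477, 0.742 and 0.673 to 2.75, 2.92 and 2.08 CPM. An entry that merges 2 locus names and is described as glutelin type-A 2 (LOC_Os10g26060 and LOC_Os10g26070) falls under the list as well and holds most of its summed level, at means of 10122 and 7587 CPM; it did not pass. Ribosome biogenesis genes, by a KEGG term chosen after its values were seen, also had more rises than falls, with 37 of 122 up and 15 down and a median of 0.12. They include elongation factor-like GTPase 1 (LOC_Os03g44780), which releases a maturation factor from the large subunit, at 1.31 ± 0.09, and SLOW WALKER 1 (LOC_Os07g12320), a factor for processing of ribosomal RNA known from Arabidopsis, at 1.03 ± 0.11. The ribosomal proteins themselves went differently. Of 194 loci in the list of cytosolic members 24 rose and 56 fell, with a median of -0.10. With library totals alone 60 rose and 13 fell, and the median was 0.22. The list holds runs of close-numbered loci, such as those from LOC_Os04g16738 to LOC_Os04g16886. Whether these code for plastid ribosomal proteins was not checked. Mitochondrial respiratory chain subunits had 3 of 72 up and 28 down; the median of -0.25 turned to 0.07, with 14 up and 10 down, under library totals alone. A cytochrome c oxidase 5b subunit (LOC_Os06g05080) went from 11.1, 9.86 and 11 to 4.03, 3.79 and 2.67 CPM and was also called as a fall with library totals alone. Of 57 proteasome subunits and assembly factors 10 rose and 19 fell, and of 22 autophagy genes 3 rose and 8 fell; the medians were -0.12 and -0.23. With library totals alone 21 proteasome loci rose and 4 fell and 3 autophagy genes rose and 1 fell, with medians of 0.18 and 0.08.

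**Figure D2:**
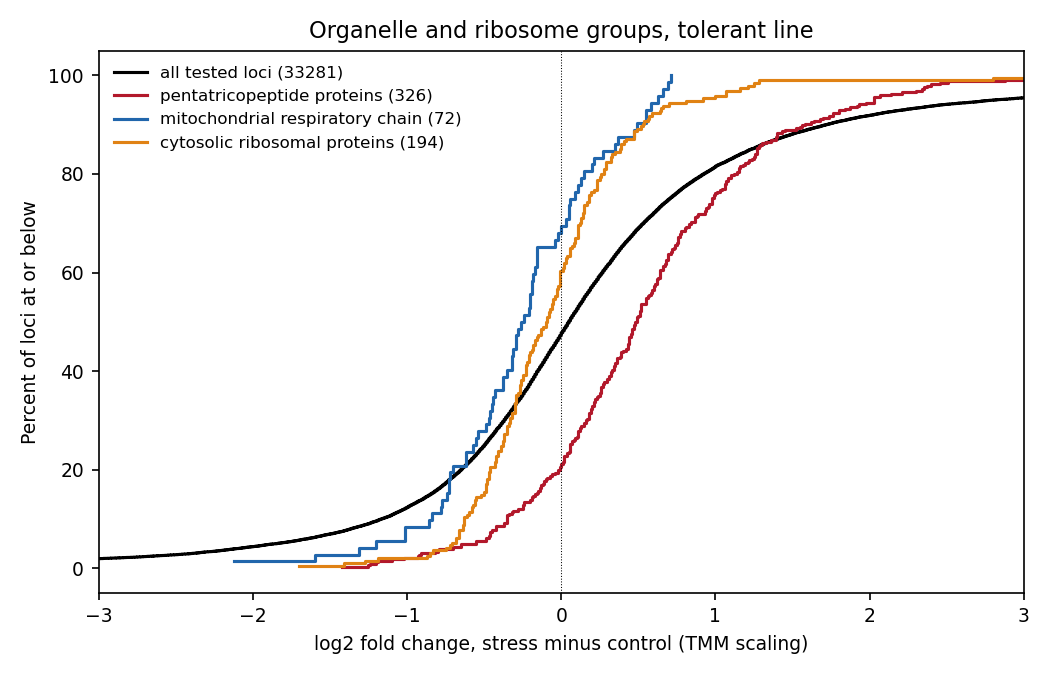
Cumulative percentage of loci at or below each log2 fold change in the tolerant line (horizontal axis, stress minus control on the TMM scale, shown from -3 to 3), for all 33281 tested loci and for 3 groups with their number of members. The curve of pentatricopeptide proteins lies to the right of all loci over most of its length, while those of respiratory chain and cytosolic ribosomal proteins cross 0 further to the left, with medians of 0.48, -0.25 and -0.10. Whether every locus listed as a cytosolic ribosomal protein is cytosolic was not checked.

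Most genes described as enzymes of the synthesis of raffinose, a sugar that protects membranes and proteins, rose. Of 9 tested galactinol and raffinose genes 7 rose and 1 fell, with a median of 0.91. Apart from the galactinol synthases they are described as galactinol-sucrose galactosyltransferases, and the activity of their products was not tested. Galactinol synthase 1 (LOC_Os03g20120, chromosome 3, 11367199 to 11368919), which makes the galactosyl donor, went from 14.1, 12.6 and 13.5 to 91.4, 96.5 and 100.5 CPM, a log2 fold change of 2.84 ± 0.09. Galactinol-sucrose galactosyltransferase 2 (LOC_Os07g10840) went from 58.5, 52.6 and 55.9 to 149, 154 and 153 CPM. The exception was galactinol synthase 2 (LOC_Os07g48830), which fell from 1.91, 2.91 and 2.14 to 0.181, 0.684 and 0.507 CPM, so the isoforms parted. Trehalose genes showed 8 rises and 3 falls among 20, with a median of 0.28. Trehalose-phosphate synthase LOC_Os08g34580 rose from 50.1, 49.2 and 45.8 to 198, 203 and 199 CPM, and the phosphatases, which remove the phosphate to leave trehalose, went both ways: TPP7 (LOC_Os09g20390, chromosome 9, 12251443 to 12254190), known in rice for germination under water, rose by 2.18 ± 0.10, whereas TPP9 (LOC_Os03g26910) and TPP4 (LOC_Os02g51680) changed by -1.93 ± 0.17 and -2.22 ± 0.29. Of 25 oleosins and late embryogenesis abundant (LEA) proteins 9 rose and 6 fell, with a median of 0.31. The dehydrin RAB16D (LOC_Os11g26750) rose from 0.727, 0.626 and 0.945 to 13.5, 12.9 and 11.5 CPM, and LEA protein LOC_Os04g50970 fell from 269, 269.9 and 272 to 93.3, 103 and 94.6 CPM. Antioxidant enzymes had 9 rises and 7 falls among 30 (median 0.10). Cytosolic ascorbate peroxidase 1 (LOC_Os03g17690) and dehydroascorbate reductase DHAR1 (LOC_Os05g02530), which act in the same ascorbate cycle, rose by 1.11 ± 0.06 and 1.72 ± 0.06, while phospholipid hydroperoxide glutathione peroxidase LOC_Os04g46960 changed by -1.15 ± 0.06.

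**Figure D3:**
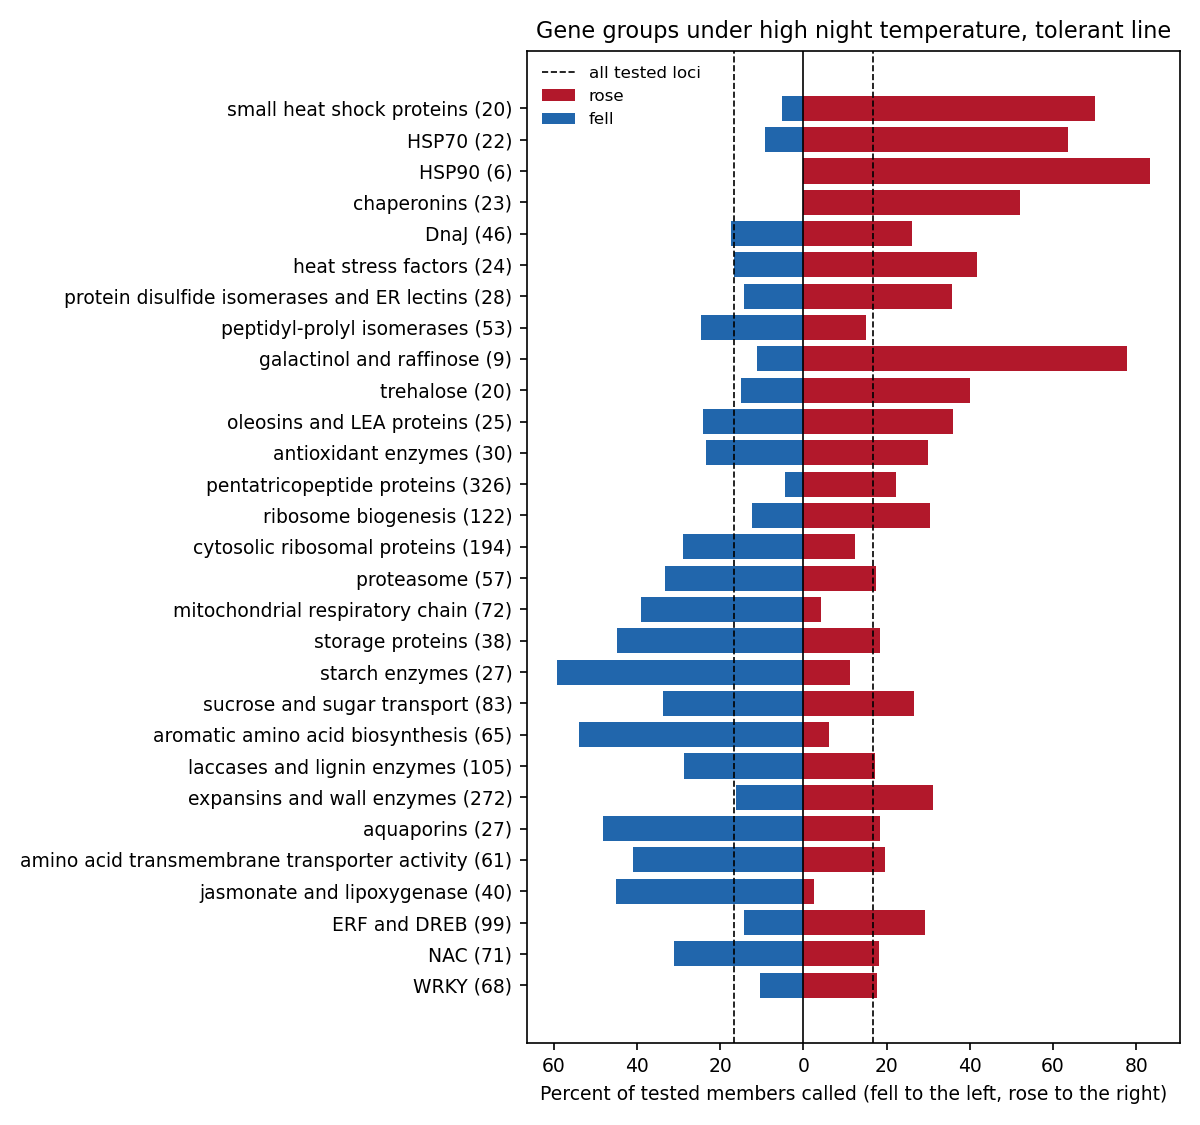
Percentage of tested members that rose (red, to the right) and fell (blue, to the left) in each of 29 gene groups of the tolerant line, with the number of tested members in brackets; dashed lines mark 16.7% and 16.6%, the shares over all tested loci. Small heat shock proteins, HSP70, HSP90 and the galactinol and raffinose group reach 63.6% to 83.3% on the right, and starch enzymes and aromatic amino acid synthesis reach 59.3% and 53.9% on the left. Groups taken from GO or KEGG terms, such as aromatic amino acid synthesis, were chosen after their values were seen.

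Storage protein transcripts fell in 17 of 38 tested loci and rose in 7, with a median log2 of -0.57, against 14 falls, 10 rises and -0.24 with library totals alone. Glutelin type-B 5 (LOC_Os02g16820, chromosome 2, 9580481 to 9586565), a member of the main storage protein family of rice, went from 7320.0, 7999 and 6759 to 3284, 3206 and 3111 CPM, a log2 fold change of -1.20 ± 0.05, and a glutelin type-A locus (LOC_Os02g25640) from 14619, 14878 and 15051 to 10436, 9980.4 and 8075 CPM. Glutelin genes are near copies of each other, so single values are uncertain. The 7 that rose do not code for the main storage proteins by description: the leading ones are basic 7S globulins, pepsin-like proteins that inhibit wall-degrading enzymes. Basic 7S globulin 2 (LOC_Os01g71080, chromosome 1, 41139174 to 41140671) had 10, 4 and 30 counts in control and 2142, 2281 and 2224 under stress, and its neighbour LOC_Os01g71090 went from 38.5, 33.2 and 38.9 to 153, 152 and 165 CPM. Outside that list, a vicilin-like protein (LOC_Os03g10110) was among the 10 largest rises in CPM, from 335, 348 and 352 to 709, 734 and 682 CPM. Of the regulators of storage genes, RISBZ1 (LOC_Os07g08420) changed by -0.52 ± 0.06 and NAC20 (LOC_Os01g01470) by -0.76 ± 0.04, beside the list median of -0.57. The prolamin-box factor RPBF (LOC_Os02g15350), at -0.53 ± 0.52, did not pass. It did when the 6 tolerant libraries were fitted alone (-0.53, adjusted p = 0.000153 in edgeR).

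Of 27 transcripts of starch synthesis, from ADP-glucose to branched chains, 16 fell and 3 rose, with a median of -0.43; with library totals alone 11 fell and 5 rose, and the median was -0.12. ADP-glucose is made by AGPL2 (LOC_Os01g44220) with AGPS2 (LOC_Os08g25734) and carried into the amyloplast by BT1 (LOC_Os02g10800, chromosome 2, 5736604 to 5738853); these changed by -0.63 ± 0.04, -1.24 ± 0.03 and -1.27 ± 0.04, BT1 from 1432, 1357 and 1473 to 579.5, 609 and 582 CPM. Branching enzyme BEIIb (LOC_Os02g32660, chromosome 2, 19355748 to 19367127), isoamylase ISA1 (LOC_Os08g40930), which trims branches, and phosphorylase PHO1 (LOC_Os03g55090) changed by -1.65 ± 0.05, -1.43 ± 0.08 and -1.05 ± 0.05. Soluble starch synthases parted: SSIIa (LOC_Os06g12450) went from 178, 165 and 176 to 102, 119.7 and 107 CPM, SSIIIa (LOC_Os08g09230) did not pass at -0.08 ± 0.12, and SSI (LOC_Os06g06560, chromosome 6, 3079059 to 3086808), which makes short chains, rose from 174, 186 and 148 to 404, 428 and 416 CPM, a log2 fold change of 1.30 ± 0.07. On the breakdown side 7 of 23 rose and 8 fell, with a median of -0.04; with library totals alone 11 rose and 7 fell, and the median was 0.28. The alpha-amylases 3A and 3D (LOC_Os09g28400 and LOC_Os08g36910) had 0, 0 and 4 and 0, 0 and 16 counts in control; under stress they had 2006, 2279 and 2350 and 1023, 735 and 730. Alpha-glucosidase LOC_Os06g46284 was uneven in control and went from 4951, 2613 and 5161 to 1442, 1473 and 1457 CPM.

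The sucrose carriers SWEET11 and SUT1 fell. SWEET11 (LOC_Os08g42350, chromosome 8, 26725898 to 26728795), an exporter of sucrose to the filling grain, went from 720.3, 718 and 734 to 223, 220.3 and 234 CPM, a log2 fold change of -1.68 ± 0.04, and the importer SUT1 (LOC_Os03g07480) from 151, 147 and 151 to 87.8, 88 and 85.9 CPM. SWEET15 (LOC_Os02g30910), which acts together with SWEET11 in rice grains, had overlapping groups, from 87.4, 81.4 and 90.8 to 86, 78.8 and 82.5 CPM (-0.07 ± 0.06), and did not pass; with library totals alone and in FPKM it was called as a rise (0.25 and 0.26, adjusted p = 0.0179 in edgeR and 0.0023 in limma). The wider list of sugar genes went both ways, 22 of 83 up and 28 down with a median of -0.07, against 29 up, 20 down and 0.25 with library totals alone. The monosaccharide carrier MST7-like (LOC_Os01g38680) was at the opposite end, from 0.0477, 0.313 and 0.319 to 7.12, 8.03 and 7.92 CPM.

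Transcripts of aromatic amino acid synthesis fell from its first step. By the KEGG term, chosen after its values were seen, 35 of 65 loci fell and 4 rose, with a median of -0.53 (-0.22 with library totals alone). DAHP synthase 1 (LOC_Os03g27230, chromosome 3, 15603830 to 15608753), which opens the shikimate pathway, went from 626, 624 and 666 to 133, 134 and 140.4 CPM, a log2 fold change of -2.23 ± 0.05. Dehydroquinate synthase (LOC_Os09g36800), shikimate kinase 3 (LOC_Os04g54800) and chorismate synthase 2 (LOC_Os03g14990) changed by -1.62 ± 0.13, -1.69 ± 0.11 and -0.82 ± 0.09. The 3 chorismate mutases with a single name and at 2 CPM or more in either group mean, which commit chorismate to phenylalanine and tyrosine, all fell. Over the steps from DAHP synthase to arogenate dehydratase, chosen after their values were seen, 11 of 18 loci under the same limits fell and 3 rose. The risers were a dehydroquinate dehydratase and 2 of the 4 arogenate dehydratases.

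The phenylpropanoid steps beyond phenylalanine fell at their entry and split at their end. The ammonia-lyase (PAL) loci LOC_Os02g41680 (chromosome 2, 25006467 to 25009121) and LOC_Os05g35290 went from 449, 439 and 470.1 to 78.2, 83.4 and 75.8 CPM and from 116, 117 and 136 to 34.6, 38.2 and 34.4 CPM. Cinnamate 4-hydroxylase (LOC_Os05g25640, chromosome 5, 14899987 to 14904546) went from 313, 308 and 329.6 to 154, 159.8 and 157 CPM, a log2 fold change of -1.01 ± 0.05. The 2 most abundant PAL loci moved less: LOC_Os02g41630 changed by -0.32 ± 0.04, which was not called with library totals alone and was 0.01 in FPKM. LOC_Os02g41650, whose counts jumped between replicates of both groups, did not pass (-1.05 ± 0.59), though it did without control library 2 (-1.53) and with replicate number as a block (-0.93). These loci are tandem copies and their counts are uncertain. Among 15 cinnamoyl-CoA reductases with a single name and at 2 CPM or more in either group mean, which make the lignin aldehydes, 5 rose and 4 fell. The most abundant, LOC_Os09g25150 (chromosome 9, 15076124 to 15079326), went from 375, 378 and 388 to 36, 35.8 and 37.5 CPM, a log2 fold change of -3.39 ± 0.05, while LOC_Os01g34480 went from 60.6, 57.7 and 59.5 to 121, 120.0 and 126 CPM. Laccases, which couple lignin units in the wall, parted most: laccase-10 (LOC_Os03g16610, chromosome 3, 9167558 to 9170334) went from 49, 57.3 and 55.3 to 1.28, 1.58 and 1.66 CPM, a log2 fold change of -5.16 ± 0.14, and laccase-2 (LOC_Os01g44330) from 1.41, 1.12 and 1.1 to 9.77, 8.35 and 9.38 CPM. From PAL to laccase, under the same limits, 16 of 37 loci fell and 9 rose. In the wider list of lignin and laccase enzymes 30 of 105 fell and 18 rose, with a median of -0.37; with library totals alone 23 fell and 24 rose, and the median was -0.06.

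**Figure D4:**
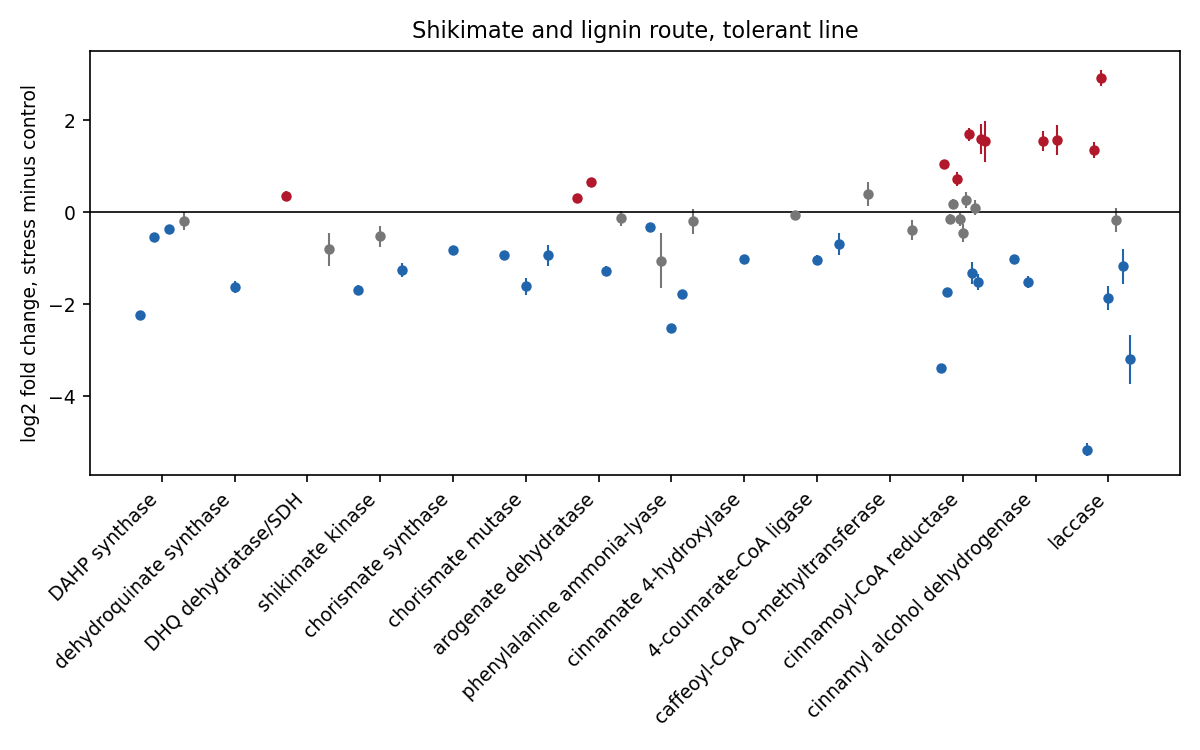
Log2 fold change with its SE (bars) for each locus of the 14 steps from DAHP synthase to laccase in the tolerant line. Loci with a single name and at 2 CPM or more in either group mean are shown, red for rose, blue for fell and grey for not passed. Falls outnumber rises by 11 to 3 up to arogenate dehydratase, counted over the 18 loci shown, and from cinnamoyl-CoA reductase on rises and falls stand side by side, with laccase-10 lowest at -5.16.

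Transcripts of xyloglucan enzymes of the wall rose more often than they fell. Of 32 loci of xyloglucan metabolism, a GO term chosen after its values were seen, 14 rose and 2 fell, with a median of 1.11. Xyloglucan endotransglucosylases, which cut and rejoin the tethers between cellulose fibres, include LOC_Os06g48200 (chromosome 6, 29156425 to 29157883), which went from 13.3, 11.6 and 13.7 to 161, 162 and 168 CPM, a log2 fold change of 3.66 ± 0.09, and its neighbour LOC_Os06g48160, from 4.49, 4.24 and 3.22 to 83.6, 86.4 and 84.1 CPM. Expansins, which loosen walls without cutting them, went both ways in the named members. Beta-expansins B4 (LOC_Os10g40730, chromosome 10, 21858750 to 21861307), B6 (LOC_Os10g40700) and B15 (LOC_Os04g46630) rose, B4 from 36.4, 38.8 and 36.9 to 175, 184 and 172 CPM and the others by 4.45 ± 0.23 and 6.14 ± 0.41. The alpha-expansins A2, A4 and A5 (LOC_Os01g60770, LOC_Os05g39990 and LOC_Os02g51040) changed by -1.48 ± 0.14, -1.19 ± 0.10 and -0.98 ± 0.09, while A7 (LOC_Os03g60720) and A23 (LOC_Os02g16809) rose by 1.27 ± 0.13 and 4.15 ± 0.26. Of 35 loci of cellulose synthesis, by a GO term chosen in the same way, 17 rose and 4 fell (median 0.24). CESA5 and CESA6 (LOC_Os03g62090 and LOC_Os07g14850), of the primary wall, rose by 1.08 ± 0.05 and 1.10 ± 0.07, and CESA7 (LOC_Os10g32980), of the lignified secondary wall, fell from 55.1, 56.5 and 62.1 to 13.4, 11.4 and 12.4 CPM. NAC43 (LOC_Os08g02300), named for a regulator of secondary walls in Arabidopsis, fell from 15.8, 15.4 and 16.6 to 2.29, 3.03 and 2.73 CPM.

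Water channels were lowered in most of their called members: 13 of 27 fell and 5 rose, with a median of -0.89 (-0.56 with library totals alone). In the plasma membrane, PIP1-3 (LOC_Os02g57720, chromosome 2, 35349673 to 35351454) went from 251, 235 and 252 to 28.8, 31.9 and 26.4 CPM, a log2 fold change of -3.08 ± 0.08, and PIP2-1, the most abundant of the plasma membrane channels in CPM, fell from a mean of 506 to 241 CPM. PIP2-6 (LOC_Os04g16450) went up, from 6.99, 7.93 and 8.62 to 31.8, 32 and 30.4 CPM. Among vacuolar channels TIP1-1 (LOC_Os03g05290, chromosome 3, 2562732 to 2564648) and TIP2-2 (LOC_Os06g22960) rose by 1.32 ± 0.05 and 1.28 ± 0.07, TIP4-2 (LOC_Os01g13130) fell from 8.92, 8.7 and 11.1 to 0.954, 0.934 and 0.882 CPM, and seed-type TIP3-1, at a mean of 1946 and 1985 CPM, did not pass.

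Nitrate reductase fell, as did more nitrate and amino acid carriers than rose on the TMM scale. Nitrate reductase (LOC_Os08g36480, chromosome 8, 23033230 to 23038596) went from 73.4, 64 and 68.6 to 3.2, 4.73 and 3.22 CPM, a log2 fold change of -4.21 ± 0.16. Of 31 loci annotated as nitrate transporters 11 fell and 2 rose, with a median of -0.51. With library totals alone 5 fell and 5 rose, and the median was -0.20. This term and that of amino acid transporters were chosen after their values were seen. Of 61 amino acid transporters 25 fell and 12 rose, with a median of -0.31; with library totals alone 21 fell and 17 rose, and the median turned to 0.02 in FPKM with a pseudocount of 1. NRT1/PTR family 8.1 (LOC_Os01g67630) went from 6.86, 5.71 and 8.42 to 0.639, 0.655 and 0.554 CPM. The amino acid carriers lysine histidine transporter 1 (LOC_Os05g14820), proline transporter 1 (LOC_Os01g68050) and AVT1I (LOC_Os06g12320) changed by -3.02 ± 0.35, -2.37 ± 0.28 and -4.47 ± 0.37. Metallothionein-like 3A (LOC_Os01g10400) and gibberellin-regulated protein 2 (LOC_Os05g35690) were among the 10 largest falls in CPM, from 3523, 3352 and 3708 to 935, 956 and 994 CPM and from 3209, 3149 and 3297 to 841, 828 and 834 CPM.

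Hormone and clock genes moved in both directions. Jasmonate and lipoxygenase genes had 18 falls and 1 rise among 40, with a median of -0.55, against 8 falls, 5 rises and -0.22 with library totals alone. The conjugating enzyme JAR2 (LOC_Os01g12160), which makes the active hormone, went from 42.6, 39.2 and 49.1 to 22.5, 21.5 and 22.6 CPM, a lipoxygenase-like protein (LOC_Os08g39850) from 42.5, 37.5 and 40 to 5.1, 6.29 and 3.96 CPM, and the riser on the TMM scale was 9-lipoxygenase 4 (LOC_Os03g49380), at 0.64 ± 0.08. Cytokinin dehydrogenases, which destroy cytokinins, parted: CKX1 (LOC_Os01g09260) fell from 34.6, 31.8 and 42.6 to 11.9, 10.5 and 10.9 CPM, and CKX8 (LOC_Os04g44230) had 4, 0 and 0 counts in control and 270, 312 and 327 under stress. In the clock, morning-phased LHY (LOC_Os08g06110, chromosome 8, 3360802 to 3373434) went from 469.8, 486 and 426 to 109, 112 and 115 CPM, a log2 fold change of -2.04 ± 0.07, and evening-phased PRR1 (LOC_Os02g40510), GI (LOC_Os01g08700) and LUX (LOC_Os01g74020) rose by 1.43 ± 0.20, 0.35 ± 0.07 and 2.69 ± 0.75; the rise of LUX was not called with DESeq2 (adjusted p = 0.051) or in edgeR without control library 3 (adjusted p = 0.0526). PRR73 and PRR37 (LOC_Os03g17570 and LOC_Os07g49460) had overlapping groups and did not pass. The hour of sampling is not among the labels.

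Transcription factor families showed mixed calls. ERF and DREB factors had 29 rises and 14 falls among 99 (median 0.28), with LOC_Os02g52670 from 0.679, 0.348 and 0.201 to 10.2, 10.6 and 7.41 CPM and RAP2-type LOC_Os03g22170 from 12.9, 16.2 and 16.4 to 3.4, 3.86 and 3.82 CPM. Of 71 NAC factors 13 rose and 22 fell; their median of 0.07 turned below 0 under several filters and with single libraries left out, and with library totals alone 21 rose and 9 fell, with a median of 0.39. Of 68 WRKY factors 12 rose and 7 fell (median 0.19). WRKY62 and WRKY76 (LOC_Os09g25070 and LOC_Os09g25060), neighbours on chromosome 9 known in rice as repressors of defence, rose from 1.11, 0.765 and 1.58 to 15.3, 13.5 and 11.2 CPM and from 7.2, 7.53 and 6.44 to 37.3, 36.1 and 36.1 CPM. Of 32 nucleosome loci, mostly histones, 11 fell and 1 rose (median -0.49), against 5 falls and 4 rises with library totals alone (median -0.16), with histone H1 (LOC_Os06g04020) from 50.3, 49.5 and 50.5 to 22.2, 24.6 and 20.9 CPM. The nucleosome term was chosen after its values were seen.

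Chitinase-annotated transcripts rose more often than they fell. Of 53 tested loci of this GO term, which was chosen after its values were seen, 22 rose and 7 fell, with a median of 0.73. Several are xylanase inhibitors, proteins related in sequence to chitinases that block fungal wall enzymes: xylanase inhibitor 2-like LOC_Os05g15770 (chromosome 5, 8902479 to 8903793) went from 57.4, 54 and 57.9 to 316, 322 and 304 CPM, a log2 fold change of 2.48 ± 0.05, and xylanase inhibitor 1 (LOC_Os06g24990) from 2.75, 2.26 and 2.41 to 34.2, 32.9 and 31.9 CPM. Chitinase 9 (LOC_Os05g33140, chromosome 5, 19435358 to 19436734) had 0 counts in every control library and 411, 550 and 540 under stress, at least 33.7-fold higher against the floor. Chitinase 2 loci LOC_Os10g28050 and LOC_Os10g28120 changed by -0.73 ± 0.13 and -0.56 ± 0.07. The cell-surface kinase FERONIA-type LOC_Os04g49690, a family that senses wall integrity, rose from 1.71, 1.87 and 1.95 to 39.8, 35.4 and 36.8 CPM.

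Loci without an annotated protein had lower shares of calls than the 16.7% and 16.6% over all loci, a difference that was not tested. Of 8283 tested loci without a protein description 921 rose (11.1%) and 598 fell (7.22%), and of 4822 without a locus name 625 rose (12.96%) and 374 fell (7.76%). Transposon-annotated loci were mostly filtered out, with 105 of 918 tested, of which 17 fell and 6 rose. Locus names are not unique in the table, and 2426 names were carried by more than 1 tested locus.

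The response was compared with that of the sensitive line by the contrast of the 2 responses. It called 867 loci (2.61% of those tested), with the tolerant response above the sensitive at 422 (1.27%) and below it at 445 (1.34%). Of the 422, 285 rose in the tolerant line, 58 fell and 79 were not called, and of the 445, 348 fell, 38 rose and 59 were not called. Among loci listed as cytosolic ribosomal proteins the tolerant response was above the sensitive at 30 of 194 and below it at 0. Whether all of the 194 are cytosolic was not checked. Among chitinase-annotated loci it was above at 7 of 53 and below at 0, among ABC transporters above at 0 and below at 8 of 88, and among aromatic amino acid loci above at 0 and below at 5 of 65. These counts are read against 1.27% and 1.34% and are descriptions. The chitinase and aromatic groups rest on annotation terms chosen after the values were seen.

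BIP1, GRP94 and PDIL2-3 of the ER rose more in the tolerant line, and of the 28 isomerases, lectins and translocon parts the tolerant response was above the sensitive at 4 and below it at 0. The tolerant minus sensitive difference in log2 fold change was 0.65 ± 0.04 for BIP1 (adjusted p = 7.59e-06), 0.68 ± 0.13 for GRP94 (adjusted p = 0.0123, and 0.101 with library totals alone) and 1.08 ± 0.10 for PDIL2-3 (adjusted p = 8.85e-05). HSP101 rose less than in the sensitive line, with a difference of -0.39 ± 0.08 (adjusted p = 0.0282), a call lost without control library 1 or 3 or stress library 1 or 2 (adjusted p of 0.0548 to 0.0822 in edgeR). For HSP82 the difference of 0.77 ± 0.36 did not pass (adjusted p = 0.361). Chitinase 1 (LOC_Os06g51060, chromosome 6, 30890711 to 30892066), which went from 5.14, 5.45 and 4.78 to 20.9, 19.9 and 19.8 CPM in the tolerant line, changed by -2.29 ± 0.13 in the sensitive line, a difference of 4.27 ± 0.19 (adjusted p = 6.66e-07). Alpha-amylase 3E (LOC_Os08g36900), which breaks down starch, rose from 47, 45 and 48.7 to 140.4, 156 and 149 CPM, and its rise exceeded that of the sensitive line by 1.35 ± 0.09 (adjusted p = 1.15e-05). The falls of laccase-10 and of PAL LOC_Os02g41680 were deeper in the tolerant line, with differences of -1.48 ± 0.17 and -1.41 ± 0.07 (adjusted p = 0.000443 and 1.24e-06). So were those of SWEET11 and BT1, with -0.45 ± 0.05 and -0.55 ± 0.06 (adjusted p = 0.000853 and 0.000342). NAC20 fell less, with a difference of 0.31 ± 0.06 (adjusted p = 0.0118) that was not called with library totals alone or in FPKM (adjusted p = 0.305 and 0.054).

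**Figure D5:**
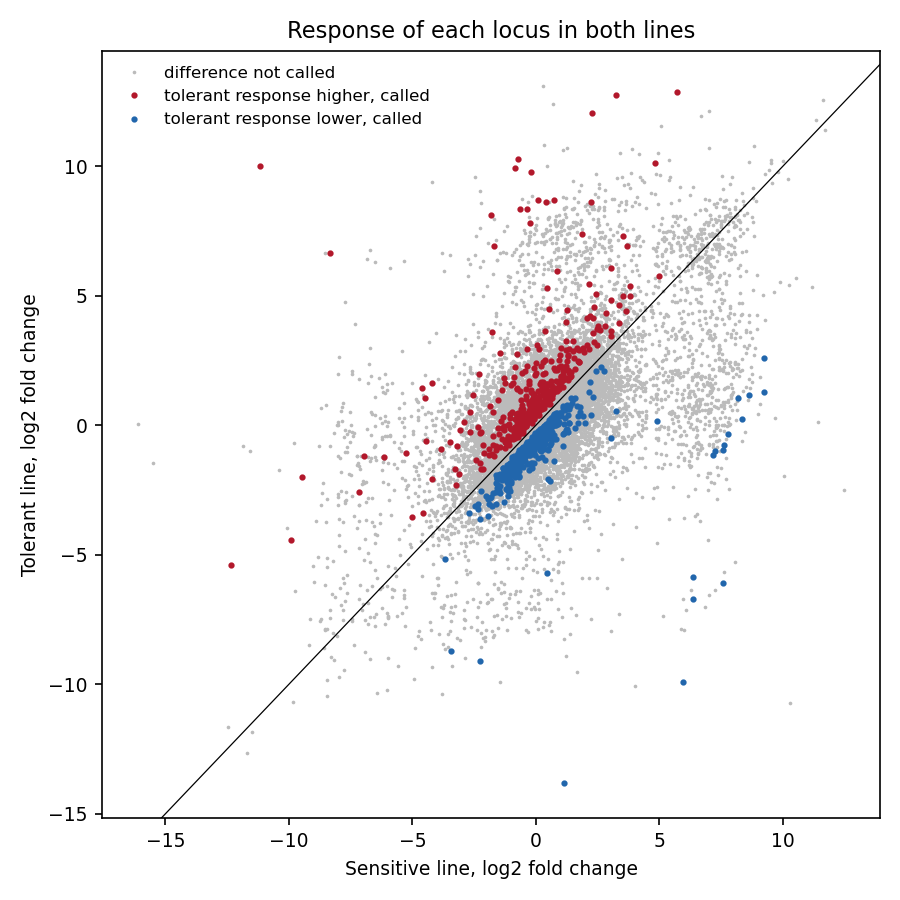
Log2 fold change of each tested locus in the sensitive line (horizontal) and the tolerant line (vertical), stress minus control; the line marks equal responses, and loci whose difference was called are red (tolerant response higher, 422) or blue (tolerant response lower, 445). Red points lie above the line and blue points below it, and the fitted values of loci at 0 counts in a group are no bound.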

How the data were processed

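Total RNA of rice lines XN0437T and XN0437S was depleted of ribosomal RNA and sequenced as libraries whose protocol marks the strand, per the labels' protocols. The authors deposited 1 table of whole-number counts and FPKM values per locus; low counts are often multiples of 4, and neither the counting method nor its use of strand is stated. The deposited FPKM values are per length and library size by their column names and hold a small constant where a locus has no reads. The submitters' processing notes name StringTie 2.1.6, HISAT2 2.2.1, cutadapt 1.9, edgeR and DESeq2, with no roles, and a mouse genome build; the aligner's rice build is unstated.

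Counts were fitted in R 4.3.3 with edgeR 4.0.16 (filterByExpr over 4 groups, TMM factors, glmQLFit, 8 residual degrees of freedom, two-sided glmQLFTest) on all 12 libraries, leaving 33281 of 50708 loci, with Benjamini-Hochberg adjustment over them. Contrasts were stress minus control in XN0437T, and that response minus the one in XN0437S. FPKM entered limma 3.58.1 as log2(FPKM + 1) and log2(FPKM + 0.1), and DESeq2 1.42.0 was an alternative. Total counts per library, which set the precision, are given with the results; no 2 libraries of a group of XN0437T held identical values. On simulated counts over 32131 loci with known changes, the same fit called 30 of 49 loci at a log2 change of -2, 14 of 47 at -1, 19 of 50 at 1 and 34 of 50 at 2. Among those loci only the ones counted here were changed, and the others had the same mean in every group. In the data 33.2% of loci were called, under which the adjustment is less strict, so these rates do not give the recovery in the data.

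Loci were grouped by the table's Description, GO and KEGG columns into 36 lists and 15 annotation terms. The members and lists were chosen with earlier results of these data known; 15 loci were removed from lists after reading their descriptions, and the annotation terms and the steps from DAHP synthase to laccase were chosen after the values were seen. No set test was run: a list is given by its counts and median beside those of all loci. Named genes were single-name loci with a protein description, called, with groups not overlapping and at least 2 CPM in the higher group: the 3 largest rises and falls of each list, the 20 largest over all loci, the 10 largest in CPM, the 10 largest differences each way, and the fixed marker and role genes, called or not. Genes of annotation terms and route steps were taken in the same way, up to 6 a term, and the rest of the small families (HsfC1b, HsfA2b and A2e, PIP2-1, TIP3-1, PDIL1-4, BAG2, BAG7, stromal HSP70 LOC_Os05g23740, the BIP3-like entry, luminal-binding protein 4, ClpB1-like LOC_Os02g33420, a merged glutelin entry) were named after their values were seen. Names follow the table, except that GRP94 rests on the orthology entry, and NAC20 and RPBF on the locus, as fixed role genes. The alternatives were other scalings, tools, filters and units, a replicate block, the 6 tolerant libraries alone, and each tolerant library left out. Sequences and promoters were not analysed here.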

Additional observations from a re-analysis of the deposited data

Results flagged for a closer look

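Of the genes named in the report, 53 had a response that differed between the lines by the tested contrast of the responses (edgeR, adjusted p under 0.05 over all tested loci). Each value is the tolerant minus the sensitive log2 fold change ± SE, and 2.61% of all tested loci were called. The naming rule itself took in the 10 largest called differences each way, so the 53 cannot be read against that share. The controls of the lines are separate libraries, and no cause of these differences was tested. Leaving out 1 tolerant library ended between 4 and 10 of the 53 calls, library totals alone ended 13, and FPKM ended 4 with a pseudocount of 1 and 3 with 0.1. These losses are named in each paragraph. Replicate number fitted as a block ended 20 of the 53, which are not marked gene by gene below. BAG3, PAL LOC_Os02g41630 and expansin A23 lost their call only with that block (adjusted p of 0.101, 0.0794 and 0.0504 in edgeR).

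Folding genes are the first group. The tolerant rise was larger for BIP1, PDIL2-3, GRP94 and SDF2, at 0.65 ± 0.04, 1.08 ± 0.10, 0.68 ± 0.13 and 0.85 ± 0.15. It was also larger for the mitochondrial small heat shock protein LOC_Os02g52150, the HSP70-type LOC_Os05g38530 and PDIL1-1, at 0.76 ± 0.13, 0.41 ± 0.09 and 0.32 ± 0.06. It was smaller for HSP101 and the cognate HSP70 LOC_Os03g16920, at -0.39 ± 0.08 and -0.32 ± 0.07. BAG3 and BAG1 fell further, at -0.73 ± 0.15 and -0.50 ± 0.11. With library totals alone the calls of LOC_Os02g52150, LOC_Os05g38530, PDIL1-1, GRP94 and LOC_Os03g16920 were lost, and that of PDIL1-1 also in FPKM with a pseudocount of 0.1. LOC_Os05g38530 lost its call without every library but control 3 (adjusted p of 0.0669 to 0.116 in edgeR), HSP101 without control 1 or 3 or stress 1 or 2, BAG1 without control 1 or 3 or stress 1 or 3, and LOC_Os03g16920 without control 3 or stress 1 or 3.

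In grain filling genes, the falls were deeper for BT1, BEIIb, AGPS2 and SWEET11, at -0.55 ± 0.06, -0.33 ± 0.06, -0.29 ± 0.05 and -0.45 ± 0.05. SWEET15 did not pass in the tolerant line and rose in the sensitive line by 0.35 ± 0.06, a difference of -0.42 ± 0.09. NAC20 fell less, at 0.31 ± 0.06. The vicilin-like LOC_Os03g10110 and basic 7S globulin LOC_Os01g71090 rose less, at -0.40 ± 0.06 and -0.70 ± 0.10, and basic 7S globulin 2 rose more, at 3.22 ± 0.48. Alpha-amylases 3E, 3D and 3A gave 1.35 ± 0.09, 8.66 ± 0.90 and 10.98 ± 0.55, and the sensitive line's own changes were 0.31 ± 0.07, -1.71 ± 0.53 and -0.71 ± 0.26. The last pair had no more than 16 counts in any tolerant control library, so their fitted sizes are no bound. Trehalose-phosphate synthase LOC_Os08g34580 and MST7-like LOC_Os01g38680 rose more, at 0.63 ± 0.09 and 2.64 ± 0.55. With library totals alone the calls of BEIIb, NAC20 and LOC_Os08g34580 were lost, and in FPKM those of NAC20 and, with a pseudocount of 1, LOC_Os01g38680. SWEET15 lost its call without control 3 or stress 2 or 3, and LOC_Os01g38680 without stress 2 or 3.

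On the aromatic route and in walls, DAHP synthase 1, PAL loci LOC_Os02g41680, LOC_Os05g35290 and LOC_Os02g41630, cinnamate 4-hydroxylase, cinnamoyl-CoA reductase LOC_Os09g25150 and laccase-10 gave -0.61 ± 0.07, -1.41 ± 0.07, -1.09 ± 0.11, -0.30 ± 0.06, -0.44 ± 0.07, -0.68 ± 0.07 and -1.48 ± 0.17. Each of these is below 0. CESA7 and NAC43 fell further, at -1.22 ± 0.12 and -0.97 ± 0.20, as did expansin A4, at -0.65 ± 0.14. Expansin A23 and xyloglucan enzymes LOC_Os06g48160 and LOC_Os06g48200 rose more, at 1.82 ± 0.33, 0.77 ± 0.18 and 0.61 ± 0.11. So did TIP1-1 and TIP2-2, at 0.47 ± 0.08 and 0.52 ± 0.10. The calls of both xyloglucan enzymes and both TIP channels were lost with library totals alone, and that of LOC_Os06g48160 also in FPKM. LOC_Os06g48160 lost its call without every library but control 1 (adjusted p of 0.0585 to 0.0942 in edgeR), expansin A4 without every library but control 2 (0.0509 to 0.0826), and NAC43 without control 3.

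Among defence, hormone and other genes, chitinase 1 moved in opposite directions in the lines, at 4.27 ± 0.19. Xylanase inhibitors LOC_Os05g15770 and LOC_Os06g24990 and the FERONIA-type kinase LOC_Os04g49690 rose more, at 0.77 ± 0.07, 1.27 ± 0.14 and 1.48 ± 0.21. The lipoxygenase-like LOC_Os08g39850 fell further and 9-lipoxygenase 4 rose less, at -1.66 ± 0.23 and -0.72 ± 0.11. CKX1 fell further and CKX8 rose more, at -0.69 ± 0.16 and 5.53 ± 0.86. LHY, RAP2-type LOC_Os03g22170, NRT1/PTR family 8.1, gibberellin-regulated protein 2 and glutathione peroxidase LOC_Os04g46960 fell further, at -0.47 ± 0.10, -0.86 ± 0.20, -1.59 ± 0.31, -0.78 ± 0.04 and -0.57 ± 0.09. CKX1 lost its call without every library but control 2 (adjusted p of 0.062 to 0.107 in edgeR) and LOC_Os03g22170 without every library but control 1 (0.0753 to 0.107). LHY lost its call with library totals alone and without control 1 or 2 or stress 1 or 2, and NRT1/PTR family 8.1 in FPKM with a pseudocount of 1 and without stress 3.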

How the results depend on the processing

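The count of 11059 called loci stayed within 9345 to 13619 under every alternative run, and within 9345 to 9835 with single tolerant libraries left out. The split of the calls moved with the scaling: 50.2% of called loci rose with TMM, against 76.8% with library totals alone, 77.1% in FPKM with a pseudocount of 1 and 77.0% with 0.1, and 49.3% to 50.5% with single libraries left out. With library totals alone, 12 of 51 gene lists changed the sign of their median, and in FPKM 13 did. The 867 loci whose responses differed between the lines became 1752 with DESeq2 and 389 with the replicate block, 644 to 771 with single libraries left out, and 654 to 1147 otherwise. The cause of these shifts was not tested.

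SWEET15 changed from -0.07 to 0.25 with library totals alone and to 0.26 in FPKM with either pseudocount, PRR73 to 0.18, 0.15 and 0.19, PRR37 to 0.14, 0.06 and 0.13, and SSIIIa to 0.23, 0.26 and 0.27 in the same order. SSIIIa ran from -0.14 to 0.04 with single libraries left out, turning without control library 1, and PAL LOC_Os02g41630 was 0.01 in FPKM with either pseudocount. With library totals alone 3 of 156 named genes lost their call, and 13 of 53 differences did. Single tolerant libraries left out ended 4 to 10 of the 53. The replicate block ended 20 of the 53 and called PAL LOC_Os02g41650 (-0.93). SWEET15 was called as a rise with library totals alone and in FPKM. Replicate numbers are shared by the groups, but deviations of same-numbered libraries of the tolerant line correlated at only -0.00872, -0.0105 and 0.0138. In the sensitive line they correlated at 0.0287, 0.0274 and 0.0138, weak values but the only ones above 0 there. No label says whether same-numbered libraries belong together.

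The floor of 12 counts per library limits what a 0 can show, and p-values cover these libraries only. The motif search planned for promoters, and its shorter window, were not run.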
